A study of Mus musculus with 8 samples.

Results

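The PYHIN genes encode the interferon-inducible p200 proteins, a family that lies in 1 cluster on mouse chromosome 1. The 9 members described here are Ifi203, Ifi204, Ifi205, Ifi207, Ifi208, Ifi209, Ifi211, Mndal and Aim2. They were chosen by gene name and are 9 of the 15377 genes listed in either of the deposited tables. A further 3 PYHIN genes, Ifi206, Ifi213 and Ifi214, are listed and serve for comparison. The 8 poly(A) RNA libraries came from bone marrow cultures of C57BL/6 mice, in 4 groups of 2. Bone marrow-derived dendritic cells (BMDC) were grown for 7 days in GM-CSF at 20 ng/mL, and bone marrow-derived macrophages (BMDM) for 7 days in M-CSF at 10 ng/mL. All donors carried loxP-flanked Trpv2 alleles (Trpv2 fl/fl). The controls had no Cre, and the knockouts carried Cre in the Lyz2 locus (Lyz2-Cre; Trpv2 fl/fl). Trpv2 encodes a calcium-permeable cation channel, and Lyz2 encodes lysozyme M. Lyz2-driven Cre acts in macrophages and granulocytes and in part of the dendritic cells, so a BMDC culture can hold cells without recombination. Every knockout library thus has both the Cre insertion and the Trpv2 deletion, whose effects cannot be told apart.

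Most PYHIN proteins join an N-terminal pyrin domain, which binds other pyrin domains, to a C-terminal HIN domain, which binds double-stranded DNA. Aim2, absent in melanoma 2, binds DNA in the cytosol and assembles an inflammasome with the adaptor ASC (gene Pycard) and caspase-1. Ifi204 has been linked to DNA-triggered interferon production through STING, the adaptor that also serves the DNA sensor cGAS. Type I interferon raises the transcription of many of these genes in macrophages and dendritic cells through interferon response elements in their promoters.

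In the deposited coordinates, the members lie between 173178445 and 173859376 on chromosome 1, a span of 681 kb. Aim2, Ifi209 and Ifi208 are on the plus strand and the other 6 members on the minus strand. Deposited starts of all 9 members differ by 172434 bases from those of GENCODE M21 on GRCm38, so deposited and reference coordinates are not mixed here.

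Promoter sequence is shown because many PYHIN genes respond to interferon, and because most members were higher in 1 library that stood apart, BMDC knockout 2. In that library 7 of 8 members were at least 2-fold above the control mean, as were 13% of 10651 genes. RefSeq promoters (build GRCm38.p6, from 250 bases before to 50 after the start site) were at hand for 11 of the 12 PYHIN genes, all but Ifi204. The core of the interferon-stimulated response element, GAAA followed after any 2 bases by a second GAAA, was searched on both strands. It was found in at least 1 promoter of 9 of the 11 genes. The shares in the whole table were 3.44% of 32851 promoters and 3.99% of 27025 genes. Some of the 11 genes have promoters of nearly the same sequence, so these genes are not independent cases. Enrichment over the whole table was not tested. Aim2 and Ifi209 were the 2 genes with no match in this window. The core of the gamma-activated site, TTC followed after any 3 bases by GAA, reads the same on both strands and had no match in any of the 11 genes, against 8.3% of all promoters. The windows below hold the first motif in capitals with 15 bases on each side, in the 5′ to 3′ direction of the gene, in GRCm38.p6 coordinates.
Ifi208 (chr1:173673592-173673631, plus strand): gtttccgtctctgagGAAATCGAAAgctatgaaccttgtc
Ifi213 (chr1:173599321-173599360, minus strand): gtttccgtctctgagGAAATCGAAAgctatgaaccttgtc
Ifi206 (chr1:173491334-173491373, minus strand): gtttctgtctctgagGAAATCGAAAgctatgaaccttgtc
Ifi214 (chr1:173536012-173536051, minus strand): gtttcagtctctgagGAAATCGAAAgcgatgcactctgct
Ifi207 (chr1:173741826-173741865, minus strand): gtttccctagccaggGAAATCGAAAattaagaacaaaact
Ifi205 (chr1:174031865-174031904, minus strand): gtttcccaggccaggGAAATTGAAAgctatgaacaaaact
Ifi211 (chr1:173913059-173913098, minus strand): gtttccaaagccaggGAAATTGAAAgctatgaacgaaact
Ifi203 (chr1:173942503-173942542, minus strand): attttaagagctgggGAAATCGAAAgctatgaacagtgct
Mndal (chr1:173880199-173880238, minus strand): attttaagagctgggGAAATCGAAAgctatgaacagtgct
The 4 sequences of Ifi208, Ifi213, Ifi206 and Ifi214 carry the letters gag directly before the motif, and those of Ifi207, Ifi205 and Ifi211 carry agg. The windows of Ifi208 and Ifi213 are the same letter for letter, as are those of Ifi203 and Mndal. Ifi205 held a second match on the opposite strand, after its start site. Mndal and Ifi203 each have 2 annotated start sites. The match shown for each of them lies in only 1 of their 2 promoters, and the other Mndal promoter held a match on the opposite strand.

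Ifi208 and Ifi213 are printed in full because their promoters are nearly the same while their read counts were not. Aligned at the motif without gaps, the Ifi208 promoter was identical to that of Ifi213 at 282 of 285 bases (98.9%) and to that of Ifi206 at 253 of 282 bases (89.7%). The 6 other aligned promoters with the motif on the gene's strand matched it at 29.7% to 40.4% of the bases.
Ifi208 (chr1:173673415-173673714, plus strand): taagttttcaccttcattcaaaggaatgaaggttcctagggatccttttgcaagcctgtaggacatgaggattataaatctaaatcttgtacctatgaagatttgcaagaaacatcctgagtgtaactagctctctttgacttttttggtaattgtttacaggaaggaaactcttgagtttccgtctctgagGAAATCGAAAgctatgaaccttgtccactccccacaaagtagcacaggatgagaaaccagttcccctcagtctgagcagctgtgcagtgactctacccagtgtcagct
Ifi213 (chr1:173599223-173599522, minus strand): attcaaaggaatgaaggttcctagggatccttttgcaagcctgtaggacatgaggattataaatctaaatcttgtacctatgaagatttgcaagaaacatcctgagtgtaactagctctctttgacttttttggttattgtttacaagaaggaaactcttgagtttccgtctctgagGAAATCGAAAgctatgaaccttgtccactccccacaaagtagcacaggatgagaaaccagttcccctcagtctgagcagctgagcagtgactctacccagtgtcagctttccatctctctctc

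The labels were checked on the targeted genes and on marker lists. Trpv2 stood at 10.1% of control in the BMDM knockouts (log2 difference -3.31, SE 0.17, edgeR quasi-likelihood adjusted p = 3.5e-15) and at 21.8% in the BMDC knockouts (-2.20, SE 0.42, adjusted p = 0.97), and lower in both knockout libraries of each cell type. All 9 macrophage markers had reads in all 8 libraries. Each BMDC library had reads for 11 or 12 of 13 dendritic cell markers, summing to 345 to 1201 CPM (read counts scaled to library size), with Cd209a at 0 in 3 of the 4, and each BMDM library for 8 to 10 of them, summing to 265 to 309 CPM. Library totals were 15790185 to 19463457 reads. The labels name no batch.

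One library stood apart. BMDC knockout 2 correlated with the other BMDC libraries at a Spearman rho of 0.933 to 0.94 across genes, against 0.983 to 0.987 among the other 3. In it the shortest 20% of genes had a median log2 departure of 0.74 from the control mean, and the longest 20% one of -0.67. The members' test results in the BMDC are given with and without it. In RNA from whole cultures, fewer cells of a type and less RNA per cell cannot be told apart.

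The members' levels differed widely in the control cultures. FPKM, the read count scaled by the listed gene length and the library total, allows levels of different genes to be compared. In control BMDM the order by mean FPKM was Ifi204 (51.2 ± 17.4, SD, n = 2), Ifi211 (44.8 ± 17.4), Ifi207 (40.5 ± 2.45), Mndal (22.8 ± 4.14), Aim2 (12.3 ± 1.74), Ifi209 (10.8 ± 5.04), Ifi203 (7.94 ± 1.97), Ifi205 (0.722 ± 0.103) and Ifi208 (0.305 ± 0.0578). The ranges of Ifi204, Ifi211 and Ifi207 overlapped from one to the next, as did those of Aim2, Ifi209 and Ifi203, and the remaining neighbours in this order lay apart. In control BMDC, Ifi207, Ifi204 and Ifi211 led with mean FPKM of 26.6 ± 3.07, 25.7 ± 2.37 and 24.9 ± 0.595, and each overlapped the next. Aim2 followed at 18.1 ± 3.58 FPKM and Ifi208 was again last at 0.0365 ± 0.00372 FPKM, from 3 and 4 reads. Together the 9 members summed to 162 and 221 FPKM in control BMDM and to 119 and 129 FPKM in control BMDC.

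**Figure D1:**
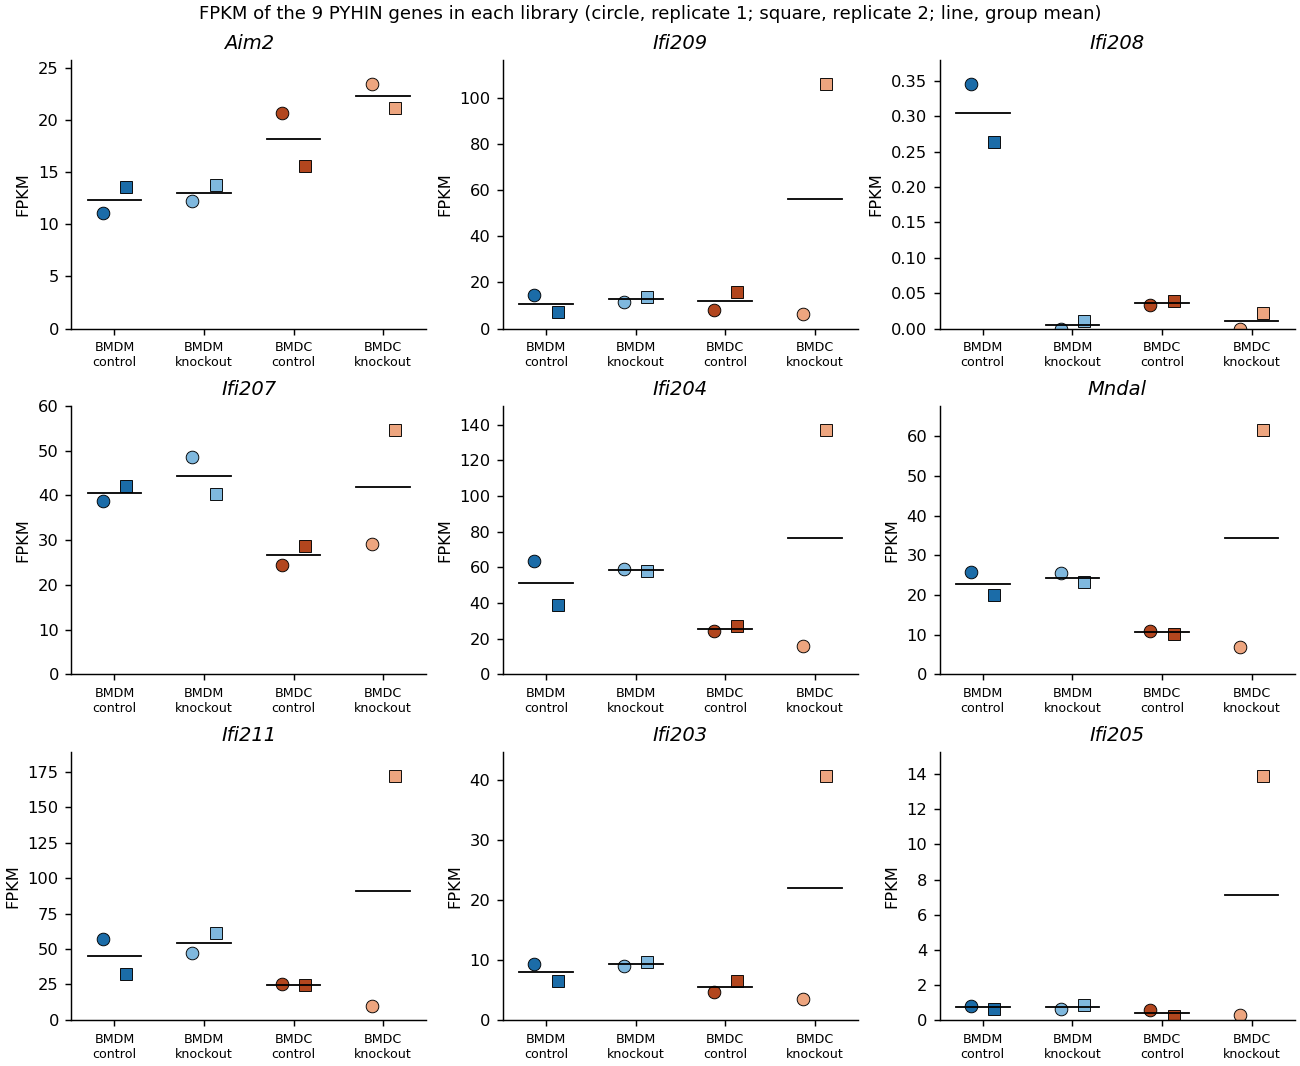
FPKM (read count scaled by gene length and library total, linear axis from 0, a separate scale in each panel) of the 9 members in the 8 libraries. Circles are replicate 1, squares replicate 2 and lines the group means. BMDC knockout 2 is the highest library for 7 of the 9 genes, and Ifi208 is at or near 0 in both BMDM knockouts.

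In control macrophages 7 of the 9 members lay above control dendritic cells without overlap, and Aim2 lay below. These comparisons ask how the sensors differ between the cell types before any deletion. In the joint edgeR fit of all 8 libraries, 0 of the 9 members passed, against 9.75% of 11671 genes. At an unadjusted p under 0.05 there was 1 member, Ifi208, against 28.7% of all genes. The median log2 difference (BMDM minus BMDC) was 1.02 over the members and -0.019 over all genes. Non-overlapping higher values were found in 36.3% of all genes, and non-overlapping lower values in 37.7%. Ifi208 had the largest difference, from 0.179 ± 0.0229 CPM in BMDC to 1.71 ± 0.406 CPM in BMDM (SD, n = 2 each), a log2 difference of 3.21 (SE 0.92, edgeR adjusted p = 0.07), and it passed with DESeq2 (adjusted p = 0.029), as did 19.0% of all genes. It met the count filter only through the BMDM controls, the group where it was high. Mndal, named after the myeloid cell nuclear differentiation antigen, went from 35.3 ± 0.911 to 87.7 ± 20.1 CPM (log2 1.31, SE 0.89, edgeR adjusted p = 0.35). Aim2 went the other way, from 58.9 ± 10.1 to 45.8 ± 4.27 CPM (log2 -0.36, SE 0.24, edgeR adjusted p = 0.35). Ifi209 overlapped between the cell types at 39.5 ± 18.8 and 41.2 ± 21.0 CPM.

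The joint fit shares its spread with the BMDC knockouts, and the calls depended on them. With the 4 control libraries alone, a fit added after the data were seen, 5 of the 9 members were higher in BMDM, where 38.3% of 11252 genes passed and 17.7% were higher: Mndal (log2 1.32, SE 0.20, edgeR adjusted p = 0.0044), Ifi207 (0.80, SE 0.16, adjusted p = 0.01), Ifi208 (3.22, SE 0.64, adjusted p = 0.011), Ifi204 (1.21, SE 0.28, adjusted p = 0.017) and Ifi211 (1.07, SE 0.29, adjusted p = 0.03). With either BMDC knockout library left out, the joint fit called these 5 members and Ifi203, where 40.8% of all genes passed in each fit. Ifi208 met the count filter of each of these fits only through the BMDM controls, where it was high. Its place in these counts is therefore not independent of the difference tested. Aim2 was called in none of these fits, with an edgeR adjusted p of 0.16 in the control libraries alone.

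In the macrophages, Ifi208 was the 1 of 11 tested PYHIN genes that changed with the knockout. Ifi214, with 5 and 1 control reads and 3 and 9 knockout reads, was not tested. The control libraries held 29 and 22 Ifi208 reads and the knockout libraries 0 and 1, without overlap (13.6% of all genes were lower without overlap). This was 1.89% of the control level by pooled reads, with an exact 95% interval of 0.047% to 11% that covers counting error only. In edgeR's quasi-likelihood test Ifi208 fell (log2 -5.50, SE 0.97, adjusted p = 0.0044), where 0.109% of 11024 genes passed and 0.0635% passed in this direction. Ifi208 met the count filter of this test only through the control libraries, where it was high. The fitted log2 value of a gene with 1 read in a group depends on the prior count. The authors' deposited table gives a ratio of 0.0171 with an adjusted p of 0.0082. The call was lost with DESeq2 (adjusted p = 0.3), on the log2(FPKM + 1) scale (0.51), in the joint fit (1), without BMDM control 1 (0.085) and without BMDM knockout 1 (0.15). All of these gave a lower value in the knockouts.

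The other 8 members did not pass in macrophages, and none separated the groups. Ifi204 measured 244 and 138 CPM in the control libraries, against 197 and 202 CPM with the knockout. Aim2 measured 42.0 and 47.4 CPM without the knockout, and 40.4 and 47.5 CPM with it. In both genes the knockouts lay within or across the range of the controls. Ifi207 stood at 143 and 144 CPM against 157 and 136 CPM, the knockouts falling on either side of the controls. Log2 differences of the 8 ranged from -0.06 (Ifi205) to 0.15 (Ifi211), with SEs of 0.16 to 0.36 and an edgeR adjusted p of 1 for each. On simulated counts of the BMDM comparison the test recovered 91% of 100 genes changed 2-fold. The simulation gave every gene the same spread and changed only genes with higher read counts. Recovery for members with fewer reads or with controls further apart was not tested. BMDM control 1 exceeded BMDM control 2 in 6 of these 8 members, with the largest ratio in Ifi209 (55.0 and 25.6 CPM).

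**Figure D2:**
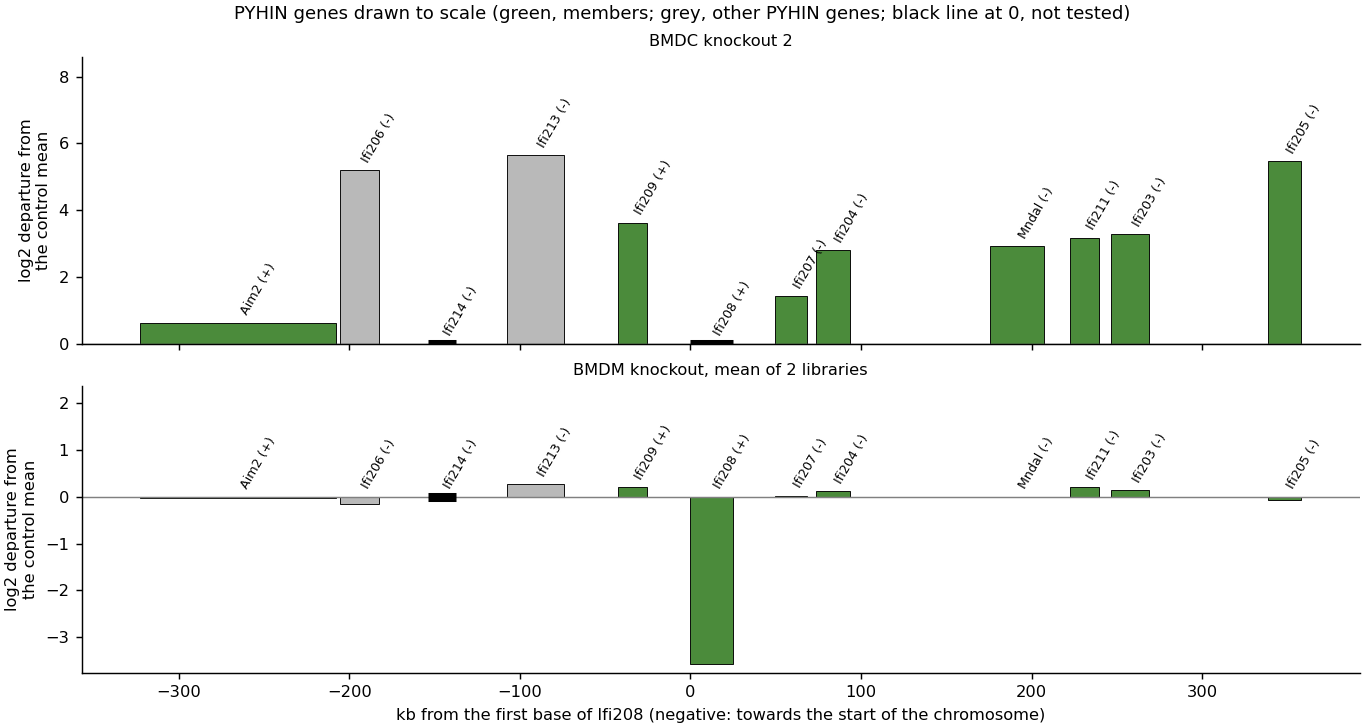
The PYHIN cluster drawn to scale, with position in kb from the first base of Ifi208 and, as bar height, the log2 CPM departure from the control mean in BMDC knockout 2 (upper) and in the BMDM knockouts (lower, mean of 2 libraries). Ifi208 alone is far below 0 in the BMDM, while every tested gene of the cluster is above 0 in BMDC knockout 2, Aim2 least at 0.62; the height drawn for Ifi208 depends on the prior count of 2 reads.

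Genes next to Ifi208 did not share its loss of reads. Ifi209, separated from it by 25746 bases as deposited, had 813 and 407 reads without the knockout and 652 and 849 with it. Ifi207, separated from it by 25031 bases on the other side, had 2117 and 2292 control reads and 2628 and 2370 knockout reads. Ifi213, with the nearly identical promoter, had 191 and 65 control reads against 130 and 174 knockout reads. Of the 17 other listed genes within 1 Mb of the cluster, 9 were tested in each cell type and 0 passed in edgeR, with 1 at an unadjusted p under 0.05 in each. Their log2 differences were -0.54 to 0.89 in the BMDM and -0.58 to 3.58 in the BMDC.

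As a share of all member reads, Ifi208 made up 0.256% (exact 95% binomial interval 0.171% to 0.367%) in BMDM control 1 and 0.26% (0.163% to 0.393%) in BMDM control 2. In the BMDM knockouts it was 0 of 11021 reads, which allows up to 0.0272% by the limit of 3 reads and up to 0.0335% by the exact interval, and 0.00829% (0.00021% to 0.0462%). The intervals of the 2 controls lie above those of the 2 knockouts. In the BMDC controls it was 0.0457% (0.00943% to 0.134%) and 0.0477% (0.013% to 0.122%), from 3 and 4 reads. In the BMDC knockouts it was 0 of 5571 reads (up to 0.0539% by 3 reads and 0.0662% by the exact interval) and 0.00573% (0.000694% to 0.0207%), from 2 reads, so the intervals overlap those of the controls. The 9 members together had 34924 reads in BMDC knockout 2, against 6558 and 8391 in the controls, while Ifi208 itself stood at 0.773 of the control mean there. By pooled reads and library totals, Ifi208 in the BMDC knockouts was at 30.0% of control, with an exact 95% interval of 3.04% to 157% that includes no change. The log2 ratio of Ifi208 to the other 8 members differed between knockouts and controls by -5.13 in the BMDM and by -2.74 in the BMDC. With 2 libraries against 2, the exact permutation test gives p = 0.333 in each cell type, the smallest it allows. The BMDC value rests on few reads and on the higher read counts of the other members in knockout 2, and a BMDC change of Ifi208 was not detectable at this depth.

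**Figure D3:**
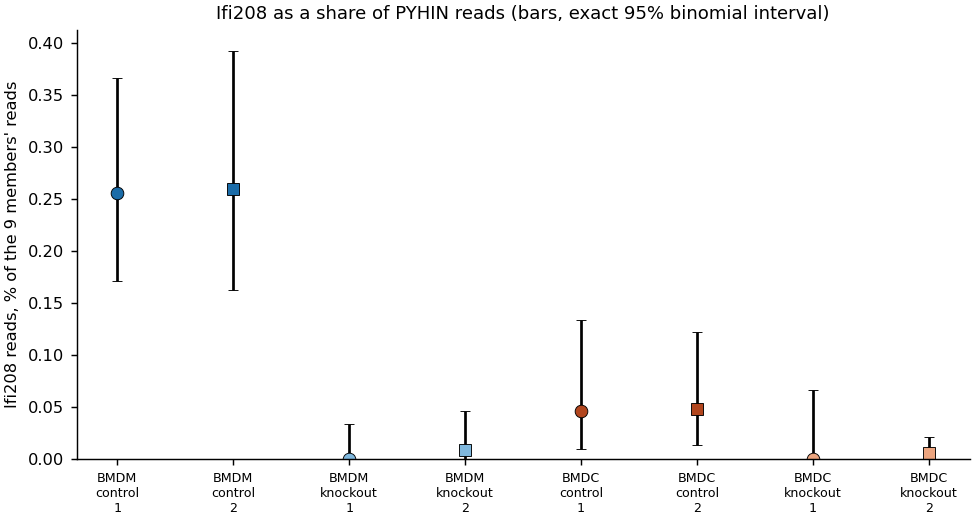
Ifi208 reads as a percent of the reads of the 9 members in each library (linear axis from 0; bars are exact 95% binomial intervals and cover counting error only). Both BMDM controls lie near 0.26%, above the intervals of the BMDM knockouts, while the BMDC controls (0.0457% and 0.0477%) have intervals that overlap those of the BMDC knockouts.

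Ifi208 shares transcript sequence with its paralogs, which limits how surely its reads are its own. In GENCODE M21 transcripts, 20.8% of its distinct 50-base stretches occur in another gene, 18.1% in Ifi213 and 6.07% in Ifi206. With 100-base stretches the share is 5.92%. The sources used here do not say how reads matching several genes were counted. In BMDC knockout 2, where Ifi213 had 2052 and Ifi206 had 2102 reads, Ifi208 had 2. Among the other members, Ifi211 shares the most, with 72.8% of its 50-base stretches in another gene (44.7% in Ifi205, 30.1% in Ifi204), and Aim2 the least, with 0.628%. Ifi209 shares 33.7% (33.4% with Ifi214), Ifi204 20.0%, Mndal 19.6% and Ifi205 18.6%. Values of Ifi211, Ifi209, Ifi204, Mndal and Ifi205 are therefore uncertain as to which gene the reads came from.

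In the dendritic cells no member passed the test, and the 2 knockout libraries went in different directions for most members. The question is the same as in the macrophages. Of the 8 members tested, 0 passed in edgeR, as did 0 of 11357 genes (0.0%). At an unadjusted p under 0.05 there were 1 member (Ifi205) and 128 genes (1.13%), and DESeq2 called 6 genes, 0 of them members. The 8 members' log2 differences were 0.45 to 4.48 with a median of 2.13, against 0.019 over all genes, and an edgeR adjusted p of 0.97 for each. Values of at least 1 were reached by 6 of the 8, and by 6.7% of all genes. On simulated counts of this comparison the test recovered 0% of genes changed 2-fold or 4-fold.

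Ifi205, which in mouse has been linked to the level of ASC, stood at 2.29 and 0.989 CPM in the controls, 1.1 CPM in knockout 1 and 71.9 CPM in knockout 2. Ifi209 stood at 27.1 and 53.6 CPM in the controls, 20.6 CPM in knockout 1 and 468 CPM in knockout 2. Both were thus far higher in knockout 2 and no higher in knockout 1. Ifi203 stood at 29.5 and 41.7 CPM in the controls, 20.5 CPM in knockout 1 and 339 CPM in knockout 2. Ifi211 stood at 42.5 and 42.0 CPM in the controls, 15.2 CPM in knockout 1 and 382 CPM in knockout 2. For both, knockout 1 was the lowest of the 4 libraries and knockout 2 the highest. Mndal stood at 37.1 and 35.3 CPM, then 22.2 CPM in knockout 1 and 274 CPM in knockout 2. Ifi204 stood at 80.4 and 93.7 CPM, then 49.7 CPM in knockout 1 and 604 CPM in knockout 2. They followed the same order of libraries. Ifi207 stood at 78.8 and 94.8 CPM in the controls, 88.5 CPM in knockout 1 and 232 CPM in knockout 2, so that knockout 1 lay among the controls. Aim2 measured 68.1 and 52.6 CPM in the control libraries, against 72.9 and 91.8 CPM with the knockout, and was the 1 tested member whose groups did not overlap (12.6% of all genes were higher without overlap). Its log2 difference was 0.45 (SE 0.35, edgeR adjusted p = 0.97).

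Against the control mean, BMDC knockout 2 held 43.9 times as much Ifi205, 11.6 times Ifi209, 9.52 times Ifi203, 9.03 times Ifi211, 7.58 times Mndal, 6.94 times Ifi204, 2.67 times Ifi207 and 1.52 times Aim2. In this 1 library 7 of the 8 were at least 2-fold higher, as were 13% of 10651 genes with a control mean of at least 1 CPM. In BMDC knockout 1 the same ratios ran from 35.9% of control (Ifi211) to 121% (Aim2). The PYHIN genes outside the members went the same way: Ifi213 was 51.5 times and Ifi206 37.3 times the control mean in knockout 2, and 29.7% and 28.9% of it in knockout 1. Ifi214 had 0 reads in both controls and in knockout 1, and 73 reads in knockout 2.

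Whether BMDC knockout 2 was included set the members' direction. Without it, their median log2 difference was -0.75, with 0 members and 0 of 11687 genes passing (0.0%), and an edgeR adjusted p of 1 for each member. The lowest was Ifi211 at -1.48 (SE 0.21, unadjusted p = 0.00083 and adjusted p = 1 in edgeR). Without BMDC knockout 1 instead, the median was 3.04 and 7 of 8 members passed in edgeR, all but Aim2 (adjusted p = 0.11), where 27.5% of 11692 genes passed and 12.7% were higher. These fits compare 1 knockout library with 2 controls, and assume that the lone library varies as the controls do. They do not describe an effect shared by both knockout libraries. Without BMDC control 1, Ifi205 passed (log2 5.18, edgeR adjusted p = 0.026).

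**Figure D4:**
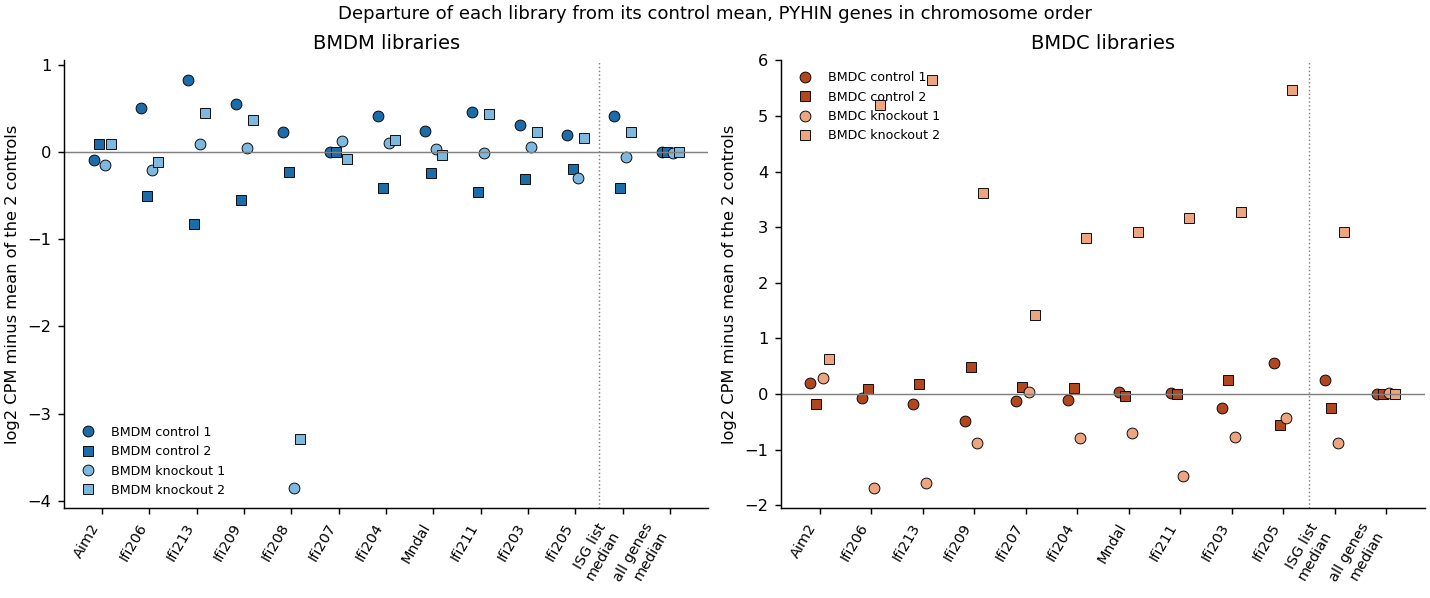
Log2 CPM of each library minus the mean of its 2 controls, for the tested PYHIN genes in chromosome order, with the medians of the interferon-stimulated gene (ISG) list and of all genes tested at the right. In the BMDC panel knockout 2 lies above 0 for every gene shown, with an ISG median of 2.92, while knockout 1 lies below 0 for all but Ifi207 (0.03) and Aim2 (0.28); in the BMDM panel Ifi208 is the gene whose 2 knockouts lie far from the rest, at a height that depends on the prior count.

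Other interferon-stimulated genes departed with the members. Over 51 tested genes of that list, the median log2 departure from the control mean was -0.88 in BMDC knockout 1 and 2.92 in BMDC knockout 2, beside -0.74 and 3.04 for the members. Ifi44 stood at 1.28 and 1.33 CPM in the controls, 0.678 CPM in knockout 1 and 57.5 CPM in knockout 2. Irf7, the transcription factor that amplifies type I interferon, stood at 102 and 71.4 CPM in the controls, 33.5 CPM in knockout 1 and 2096 CPM in knockout 2. In the BMDM controls the departures were 0.41 and -0.41 for the list and 0.24 and -0.24 for the members, and in the BMDM knockouts -0.06 and 0.23 for the list and 0.03 and 0.14 for the members.

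Marker lists also moved with BMDC knockout 2. The 9 macrophage markers summed to 10032 CPM there, to 5459 CPM in knockout 1 and to 24448 and 24542 CPM in the controls, where Lyz2, the gene that carries the Cre, made up most of the sum. Without Lyz2 the other 8 summed to 9827 CPM in knockout 2 and to 4480 to 6466 CPM in the other BMDC libraries. Among them, Fcgr1 stood at 1574 CPM against 67.6 to 132 CPM, and Cd68 at 3895 CPM against 1096 to 1405 CPM. Dendritic cell markers summed to 1201 CPM there and to 345 to 533 CPM in the other BMDC libraries. B and plasma cell markers summed to 30.5 CPM, with 6 of 7 showing reads and Ighm at 0, against 1.23 to 3.96 CPM in the others. Plasmacytoid dendritic cell markers summed to 73.0 CPM against 39.2 to 41.9 CPM, with 4 of 7 showing reads. Siglech, Klk1 and Pacsin1 were at 0 or not listed in each BMDC library. In knockout 2 Tcf4 stood at 47 CPM against 28.1 to 31.5 CPM in the others, and Cox6a2 at 22.1 against 7.31 to 13.1 CPM. Ly6d stood at 3.74 against 0.167 to 0.494 CPM, and Ccr9 was lower, at 0.0705 against 0.209 to 0.614 CPM. Neutrophil markers summed to 178 CPM there and to 50.7 to 173 CPM in the others, and those of mast cells, basophils and eosinophils to 62.4 CPM against 99.1 to 188 CPM. Kit made up most of the latter sums outside knockout 2, at 91 to 167 CPM, and stood at 22.9 CPM in knockout 2. Over the 6 tested genes of that list the median log2 departure was 2.29 in knockout 2. It was 0.13 in knockout 1 and -1.18 and 1.18 in the controls. The part of these lists, and of the gene-length trend, in the members' levels was not tested. With the length trend removed, the members' median log2 difference was 1.88, against 2.13 in the main test. It was 1.05 with limma-voom, 1.06 with the replicate block, and 0.90 and 0.91 with limma on log2(FPKM + 1) and log2(FPKM + 0.1).

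The contrast of the knockout effects, BMDM minus BMDC, passed for 0 of the 9 members and 0 of 11671 genes (0.0%) in edgeR, with 0 members and 225 genes (1.93%) at an unadjusted p under 0.05 and 0 genes by DESeq2. Members ranged from -4.56 (Ifi205) to -0.48 (Aim2) on the log2 scale, with an adjusted p of 0.84 for each. Ifi208 had a difference of -4.07 (SE 2.06), which was -0.83 (SE 2.54) without BMDC knockout 2 and -6.43 (SE 2.94) without BMDM knockout 2. Without BMDC knockout 2 the median over the members turned from -2.09 to 0.71, and without BMDC knockout 1 it was -3.03 with 7 members passing, where 31.2% of 11953 genes passed. With limma-voom the median was -1.05.

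Partners of the PYHIN proteins were followed in lists drawn up by function. In both knockout comparisons DESeq2 and limma-voom, like edgeR, called 0 genes of these lists. At an unadjusted p under 0.05 in edgeR there were 1 gene of the cGAS and STING list, 2 of the inflammasome list and 0 of the others in the BMDM, against 2.82% of all genes, and 5 of 51 interferon-stimulated genes and 0 of the other lists in the BMDC, against 1.13% of all genes. Of 30 genes of the cGAS and STING pathway, 0 passed with the knockout in either cell type, with median log2 differences of -0.02 in BMDM and 0.14 in BMDC. The 2 smallest p-values in the BMDM belonged to Hmgb2, a chromatin protein that binds DNA (log2 0.47, SE 0.20), and Lrrfip1 (0.38, SE 0.19), both with an edgeR adjusted p of 1. The 2 smallest in the BMDC belonged to Irf7 (log2 3.62, SE 1.59) and Nlrx1 (0.78, SE 0.36), both with an edgeR adjusted p of 0.97. Irf7 was higher in knockout 2 only, at 2096 CPM. Of 20 inflammasome genes, 0 passed in either cell type (medians -0.02 and 0.34). Il1a, which encodes the cytokine interleukin-1 alpha, measured 9 and 6.16 CPM in control BMDM, against 15.5 and 15 CPM with the knockout (log2 1.01, SE 0.23, edgeR adjusted p = 0.12). Pycard, the adaptor of Aim2, lay above both controls in both BMDC knockouts (log2 1.21, SE 0.52, edgeR adjusted p = 0.97). Of 10 tested genes of nucleic acid removal, 0 passed in either cell type (medians -0.03 and 0.53), Samhd1, which breaks down nucleotides for DNA synthesis, having the smallest p in the BMDC (log2 1.41, SE 0.72, adjusted p = 0.97 in edgeR). Its level was 193 and 257 CPM in the BMDC controls, 216 CPM in knockout 1 and 982 CPM in knockout 2. Of the interferon-stimulated genes, 0 of 52 passed in the BMDM and 0 of 51 in the BMDC (medians 0.05 and 1.86). Of 15 interferon and receptor genes, 0 passed in either (medians -0.05 and 0.27). The BMDC medians rest mostly on knockout 2, apart from the cGAS and STING list. Median log2 departures from the control mean in knockout 1 and knockout 2 were 0.10 and 0.05 for that list, -0.13 and 0.98 for nucleic acid removal, 0.01 and 0.65 for the inflammasome, and -0.14 and 0.67 for the interferon and receptor genes.

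Between the control cultures, some genes of the same lists passed in the joint fit of all 8 libraries, where 9.75% of 11671 genes passed. Cgas, the enzyme that makes the messenger for STING, was lower in BMDM (18.6 ± 0.668 CPM in BMDC and 7.66 ± 1.18 CPM in BMDM; log2 -1.28, SE 0.25, edgeR adjusted p = 0.02), the 1 of 30 genes in its list to pass. Il1a (log2 -4.66, SE 0.52), Il1b (-3.01, SE 0.52) and the sensor gene Nlrp3 (-1.59, SE 0.36) were lower in BMDM among the 20 inflammasome genes, with edgeR adjusted p of 0.0025, 0.013 and 0.033. In the nucleic acid list 0 of 10 passed in edgeR, 3 had an unadjusted p under 0.05 and DESeq2 called 1, against 28.7% and 19.0% of all genes. Among the interferon-stimulated genes, the guanylate-binding protein gene Gbp7 was lower and the chemokine gene Cxcl9 higher, 2 of 52. Cxcl9 stood at 0 CPM in the BMDC controls and at 1.13 ± 0.423 CPM in the BMDM controls. It met the count filter only through the BMDM libraries, where it was high. Of the interferon and receptor genes, Jak2, Socs1 and Ifnar1 were lower, 3 of 15. In this comparison 4.67% of all genes were called higher and 5.08% lower.

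The genes whose levels followed Ifi208 most closely over the 8 libraries were Plekhg6 (Pearson r = 0.918), Dhx30 (0.876), Klhl22 (0.862), Tfam (0.854) and Ercc3 (0.847), as a description with no test. Plekhg6 stood at 3.03 and 2.98 CPM in the BMDM controls and at 1.81 to 2.33 CPM in the other 6 libraries. Those closest to the mean of the other 8 members were Aldh1b1 (0.997), Nt5c3 (0.994), Ifi213 (0.994), Ms4a4c (0.994) and BC031181 (0.993), all of which were highest in BMDC knockout 2. Points of such a correlation share a library, and BMDC knockout 2 lies far from the rest.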

How the data were processed

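Per the labels' protocols, the kit was TruSeq Stranded mRNA and the sequencer a NovaSeq, with reads trimmed with cutadapt and counted per gene with HTSeq. The aligner, tool versions and the strand setting of the counting are not given in the sources used here. Without a stated strand setting, reads of overlapping genes such as Aim2 and Cadm3, which lie on opposite strands, may not be separated. Both GRCm38 and GRCm39 appear in the submitters' processing notes, and 2.17% of the matched genes have the start given by GENCODE M21 (GRCm38). The authors deposited raw counts per gene, FPKM values (from the same counts, by gene length as listed and library total), and a comparison table with the ratio (fold) of knockout to control and its p-value; the tool behind it is not given. The tables list 14755 genes (BMDC) and 14311 genes (BMDM), with 13689 in both. No 2 libraries held the same values.

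The members and lists were chosen with earlier results of these data known. Counts were tested with edgeR 4.0.16 (quasi-likelihood, TMM, Benjamini-Hochberg adjustment, threshold 0.05, genes kept by filterByExpr with min.count at 10) in R 4.3.3, within each cell type and in a joint fit over genes in both tables, on which each adjusted p rests. Levels in CPM are TMM-scaled within the fit they stand beside, and log2 departures use a prior count of 2. The test itself returns no SE. Each SE beside an edgeR log2 value is its absolute size divided by the square root of the test's F statistic. The test was checked on simulated counts, drawn with the same spread for every gene and changed only in genes with higher read counts. Of the 9 members, 9 passed the filter in the BMDM and 8 in the BMDC, where Ifi208 had 7 reads in the controls and 2 in the knockouts. In the BMDM, in the joint fit and in the 4 control libraries alone, Ifi208 passed it only through the BMDM controls. In the ratio of Ifi208 to the other members, 0.5 was added to both counts. A count of 0 is bounded at 3 reads. Alternatives were DESeq2 1.42.0, its size factors, limma-voom and limma on log2(FPKM + 1) and log2(FPKM + 0.1) (limma 3.58.1), no filter, a filter at 1 CPM, removal of the gene-length trend, a block for the replicate number, the joint fit for the results within a cell type, and each library left out in turn; the fit of the 4 control libraries alone was added after the data were seen. Named genes were the members, the other PYHIN genes, Trpv2 and Lyz2, listed genes within 1 Mb as counts, list genes past the threshold (at most 3, otherwise the 2 of smallest p), and the 5 genes most like Ifi208 and most like the mean of the other members with a mean of at least 1 CPM. Nothing in the labels says which cultures came from the same mouse, and with 2 libraries a group p-values measure the spread between these few samples.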

Additional observations from a re-analysis of the deposited data

How the results depend on the processing

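The number of genes called with the knockout in the BMDM was 12. It was 2 in the joint fit and 11 to 34 when 1 library was left out. In the BMDC the 0 calls became 6 with DESeq2, 1 without a filter on low counts, 2 with the replicate block, 18 with the replicate block and the gene-length trend removed, and 1 in the joint fit, none of them a member. Leaving out 1 BMDC library gave 0 to 3215. For the difference between the knockout effects, leaving out 1 library gave 0 to 3733 calls, against 0. The 1138 calls between the control cultures became 2212 with DESeq2, 4311 in the 4 control libraries alone and 218 to 4877 with 1 library left out. The cause was not tested. The log2 ratio of Ifi208 to the other members, averaged over both cell types, was -3.94 (exact two-sided permutation p = 0.0556, the smallest of 36 arrangements), of which the BMDC part rests on 0 to 4 reads a library. It was lower in the knockouts in every alternative run, and -3.35 with the library total as the denominator.

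Of 552 recomputed values of single members, 478 (86.6%) kept their direction and their side of the threshold. In the BMDM, changes near 0 turned sign: Mndal 0.01 with the replicate block and the length trend removed, and on the log2(FPKM + 1) and log2(FPKM + 0.1) scales Ifi205 0.02 and 0.03, Mndal 0.10 and 0.10, and Aim2 0.07 and 0.08. Between the controls, Ifi209 was -0.04 with the length trend removed. With 1 library left out, the BMDM values ran from -0.15 to 0.47 for Ifi203, -0.28 to 0.54 for Ifi204, -0.32 to 0.16 for Ifi205, -0.08 to 0.13 for Ifi207, -0.32 to 0.78 for Ifi209, -0.23 to 0.70 for Ifi211, -0.23 to 0.25 for Mndal and -0.15 to 0.09 for Aim2. The BMDC values ran from -0.80 to 3.24 for Ifi203, -0.81 to 2.78 for Ifi204, -0.58 to 5.45 for Ifi205, -0.98 to 3.52 for Ifi209, -1.48 to 3.16 for Ifi211 and -0.71 to 2.91 for Mndal. The differences between the effects ran from -3.14 to 0.94 for Ifi203, -2.74 to 0.90 for Ifi204, -5.54 to 0.52 for Ifi205, -1.39 to 0.03 for Ifi207, -3.42 to 1.13 for Ifi209, -3.03 to 1.66 for Ifi211, -2.95 to 0.71 for Mndal and -6.43 to -0.83 for Ifi208. Ifi209 between the controls ran from -0.58 to 0.67.

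Same-numbered libraries did not deviate together (correlation -0.00157 in the BMDC and -0.244 in the BMDM), and the labels tie no number to a mouse. Whether same-numbered BMDC and BMDM cultures came from 1 mouse was not tested. With the replicate block, 11 genes were called in the BMDM, Ifi208 among them, 2 in the BMDC, 0 for the difference and 824 between the controls. Depth limits Ifi208, which had 0 to 29 reads a library.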
